A study of Mus musculus with 2 samples.

Results

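The genes described here are Hlf, Dbp and Tef, which encode the PAR bZIP transcription factors, and Nfil3, which encodes a related bZIP repressor. Peaks of the FLAG-HLF peak list were taken when their centre lay inside 1 of these genes or within 100 kb of its ends. The rule took 8 of the 3153 peaks, and each of the 4 genes had at least 1. The study profiled the genome-wide binding of HLF in mouse LSK cells, the Lin-Sca-1+c-Kit+ fraction of bone marrow that holds stem cells and multipotent progenitors. The FLAG-HLF group was wild-type LSK cells infected with a pMX-3xFLAG-Hlf/Hlf-IRES-GFP retrovirus, so the tagged factor came from a virus and not from the Hlf gene itself. The GFP-ctrl group was wild-type LSK cells infected with a pMX-GFP control virus. Both groups were then kept for 5 days in basal OP9 medium with SCF, IL-7, Flt3L and IL-3, and chromatin was precipitated with an anti-FLAG antibody. There was 1 library per group, and peaks of the GFP-ctrl library were not analysed here. No value below therefore has a replicate error, and no difference was tested. A peak list holds no expression values, so the LSK label could not be checked against marker genes.

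PAR bZIP factors bind DNA as dimers through a basic region and a leucine zipper, next to a proline and acidic amino acid rich (PAR) domain. HLF, DBP and TEF can dimerise with each other and activate genes from a palindromic site, known in the clock field as the D-box. NFIL3, also called E4BP4, lacks the PAR domain, binds the same site and represses. In liver and other tissues Dbp, Tef, Hlf and Nfil3 are rhythmic outputs of the circadian clock. In blood, Hlf marks stem cells and is silenced as they differentiate, and Nfil3 is required for innate lymphoid and natural killer cells.

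Of the 4 genes, only Tef had a peak over an annotated start. Tef has 2 starts in the RefSeq promoter table of GRCm38.p6, which gives each start 250 bases before and 50 bases after it. The window of the first start lay wholly under a FLAG-HLF peak, with 300 of its 300 bases covered, while the window of the second start and those of Hlf, Dbp and Nfil3 had 0 bases covered. The 2 Tef windows are shown because 1 was under a peak and the other, on the same strand of the same gene, was not. Capitals mark each match to the PAR bZIP site with at most 1 mismatch.
Tef first start, chr15:81802423-81802722, plus strand: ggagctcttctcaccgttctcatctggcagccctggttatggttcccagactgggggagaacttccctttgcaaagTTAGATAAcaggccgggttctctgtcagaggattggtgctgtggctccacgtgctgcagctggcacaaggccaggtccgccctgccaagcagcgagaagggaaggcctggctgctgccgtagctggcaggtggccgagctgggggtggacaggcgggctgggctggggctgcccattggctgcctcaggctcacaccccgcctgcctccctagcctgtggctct
Tef second start, chr15:81811164-81811463, plus strand: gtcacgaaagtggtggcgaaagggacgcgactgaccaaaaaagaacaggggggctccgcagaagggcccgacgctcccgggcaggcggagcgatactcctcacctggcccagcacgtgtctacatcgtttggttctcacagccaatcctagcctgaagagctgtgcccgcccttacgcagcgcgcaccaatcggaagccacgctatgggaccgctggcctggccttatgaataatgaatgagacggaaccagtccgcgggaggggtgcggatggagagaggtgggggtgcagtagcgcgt

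The PAR bZIP site was searched on both strands as TTATGTAA (reverse TTACATAA) and TTACGTAA, its own reverse. No exact copy was found in the 5 promoter windows of the 4 genes. The covered Tef window held 1 match with 1 mismatch, TTAGATAA, whose first base lies 174 bases before the start. The other 4 windows held no match with 1 mismatch. Their closest words, shown with their neighbouring bases and the 8 letters in capitals, had 2 mismatches in Hlf and at the second start of Tef, and 3 in Dbp and Nfil3. Where several words of a window were equally close, the first is shown.
Tef first start: ttgcaaagTTAGATAAcaggccgg
Tef second start: gTCACGAAAgtggtggcgaaaggg
Nfil3: gcgggcggCGACGTAGcgcggcgc
Dbp: agggctcgAGACGTGAttggttct
Hlf: gcgggcccTGACGTCActcttgtc
The absence of a word speaks only for these windows. The bases under the other 7 peaks were not read here, because the promoter windows of the 4 genes do not reach them.

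Tef, the thyrotroph embryonic factor gene (chromosome 15, 81802673 to 81826863, plus strand, 24.2 kb), had 3 peaks. The first (chr15:81802329-81802728) was centred 0.145 kb upstream of the first start and lay within a noncoding gene, Gm17597, but in no coding gene. The next (chr15:81810031-81810430) was inside Tef, 7.56 kb downstream of the first start and 1.18 kb upstream of the second. The centres of these peaks were 7.70 kb apart, each upstream of the Tef start nearest to it. The first peak itself ran across the first start. The last (chr15:81851516-81851915) was 24.9 kb beyond the end of Tef. It lay inside Tob2, an antiproliferative gene of the BTG/TOB family, 6.61 kb from the Tob2 start, and Phf5a, a splicing factor gene, was also closer to it than Tef. The coding neighbours of Tef within 100 kb include Rangap1, Zc3h7b, Tob2 and Phf5a. The closest is Zc3h7b, a zinc finger gene whose end lies 6.40 kb away. Exons and introns are not told apart by the gene table used here.

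Nfil3 (chromosome 13, 52967209 to 52982878, minus strand, 15.7 kb) had 2 peaks. One (chr13:52976701-52977100) was inside the gene, 4.14 kb downstream of the annotated start, and no other coding gene was closer. The nearest coding gene ends on its sides were those of Auh, at 47.2 kb, and Ror2, a receptor tyrosine kinase gene, at 132.4 kb. The other peak (chr13:52914400-52914799) was 52.6 kb beyond the end of Nfil3. It lay inside Auh, which encodes a mitochondrial enoyl-CoA hydratase that also binds RNA, 15.1 kb downstream of the Auh start, and the next coding gene past Auh was Syk, 265.8 kb from the peak. Auh was the sole coding neighbour of Nfil3 within 100 kb. The intragenic peak of Tef lay 7.56 kb downstream of its first start, and that of Nfil3 4.14 kb downstream of its sole annotated start. The Nfil3 start (52981039) lies inside the gene bounds, while the first Tef start (81802673) is the gene end, so these distances are not alike. Neither peak touched a promoter window.

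Dbp, the gene of the albumin D-site binding protein (chromosome 7, 45705100 to 45710203, plus strand, 5.10 kb), had 2 peaks in its window and 0 inside. One (chr7:45623501-45623900) was 81.4 kb upstream of the gene and lay inside Izumo1, which encodes a sperm protein needed for fusion with the egg, 1.89 kb downstream of the Izumo1 start. The other (chr7:45800450-45800849) was 90.4 kb beyond the end of Dbp, inside Lmtk3, a kinase gene. For each of these peaks 12 coding genes were closer than Dbp. Dbp sits among 16 coding neighbours within 100 kb, against a median of 4 for all coding genes. They include Car11, a carbonic anhydrase-related gene that ends 0.413 kb from Dbp, and Sphk2, a sphingosine kinase gene that overlaps it. Izumo1 and Lmtk3 were the neighbours with a peak inside. Of the others, Fgf21, Mamstr, Fut2, Sec1, Ntn5, Rpl18, Fam83e, Spaca4 and Sult2b1 had their nearest peak 8.21 to 79.8 kb away. Fut1 and Rasip1, on either side of Izumo1, had their nearest peak at 2.64 and 3.84 kb, and Cyth2 at 5.99 kb.

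Hlf itself (chromosome 11, 90336535 to 90390917, minus strand, 54.4 kb) had 0 peaks inside and 1 in its window. This peak (chr11:90240721-90241120) was 95.6 kb beyond the end of Hlf and 150.0 kb from its start. It lay in no coding gene and was 8.56 kb upstream of the start of Mmd, a membrane protein gene named for monocyte to macrophage differentiation, which was the sole coding gene closer than Hlf. Tmem100, on the other side of the peak, was 204.4 kb away. On the upstream side the nearest peak was 3139 kb from Hlf, past Stxbp4. Hlf therefore lay in a stretch of 3289 kb between neighbouring peak centres. Of the 3133 such stretches in the list, 5.33% were at least as long. Of the 19575 coding genes with no peak inside and a peak on both sides, 23.9% were in a stretch at least as long as that of Hlf, and the median stretch was 1254 kb. The stretch around Dbp was 176.9 kb, and 94.9% of those genes were in a stretch at least as long.

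**Figure D1:**
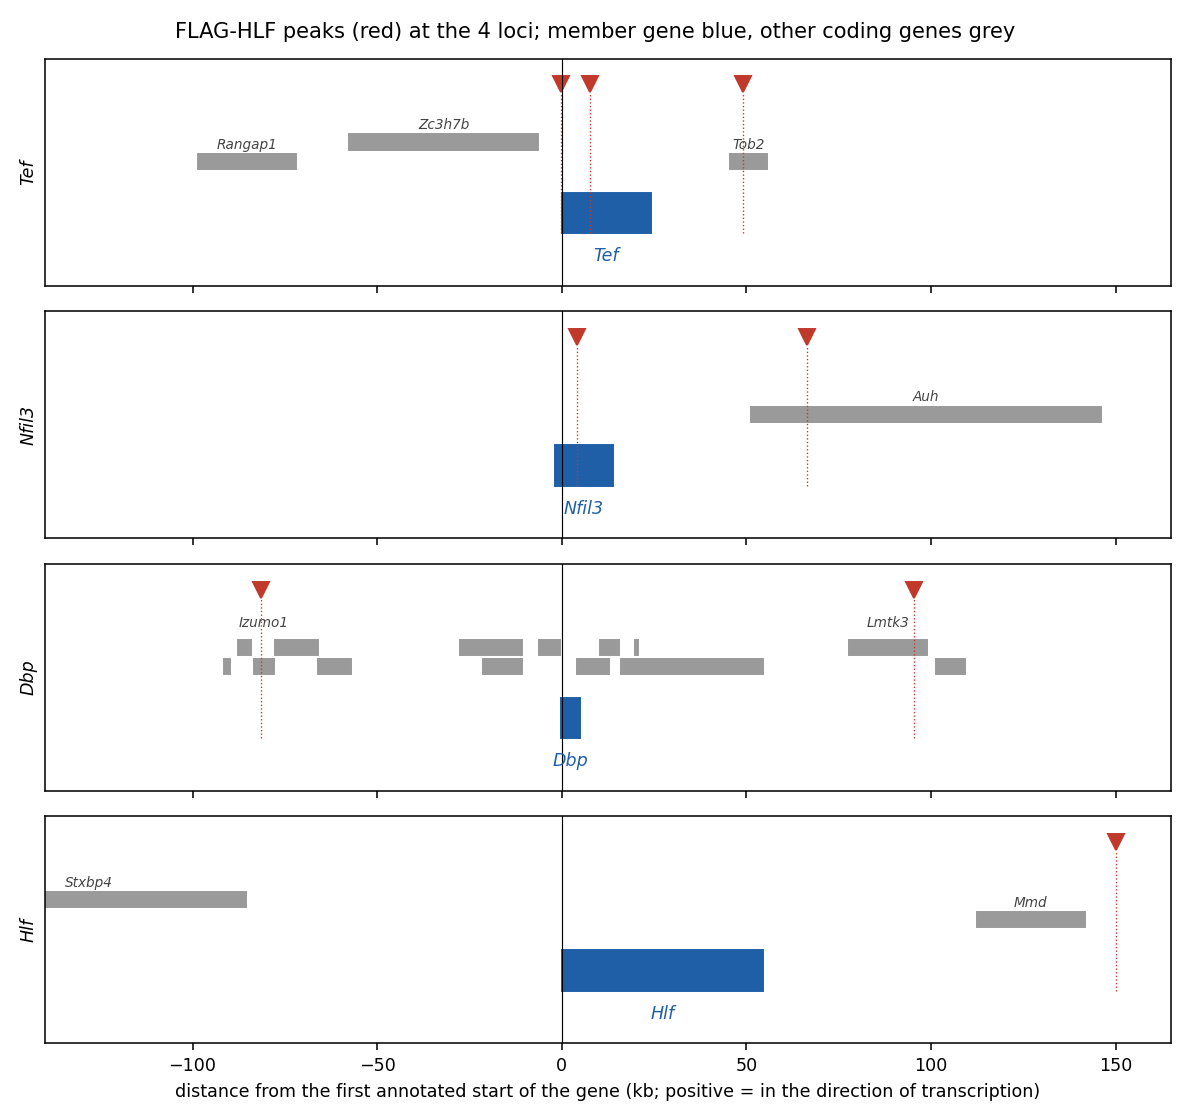
Maps of the 4 loci, with the distance from the first annotated start of each gene in kb on the x axis, positive in the direction of transcription. Blue boxes are the named gene, grey boxes other coding genes within 100 kb that have a promoter window in the table (for Dbp only Izumo1 and Lmtk3 are labelled, and Stxbp4 runs past the left edge), and red triangles peak centres: 3 at Tef, 2 at Nfil3, 2 at Dbp and 1 at Hlf, with a peak inside only Tef and Nfil3.

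Among the 8 peaks, 2 lay inside their gene, 2 upstream of it and 4 downstream. Those in another coding gene numbered 4, and for 5 of the 8 some coding gene was closer than the member. The 3 for which the member was the closest coding gene were those at the first start of Tef, inside Tef and inside Nfil3. By distance to the nearest peak, Tef and Nfil3 came first with a peak inside, followed by Dbp at 81.4 kb and Hlf at 95.6 kb. The limit of 100 kb falls close to some of these values. Hlf at 95.6 kb was the last peak inside it, and the first outside it was 103.9 kb upstream of Tef (chr15:81698551-81698950). The next peaks outside were 144.2 kb beyond the end of Nfil3, 206.2 kb beyond that of Dbp and 1737 kb beyond that of Hlf.

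All 4 genes had a peak inside or within 100 kb, where 36.3% of the 21900 coding genes did. With 4 genes, the exact 95% interval of that share ran from 39.8 to 100%. Inside the gene the count was 2 of 4, against 6.82% of coding genes, with an interval of 6.76 to 93.2% that includes the background. Within 1 kb of a gene end it was 1 of 4, Tef, against 1.73%. With 3 or more peaks it was again 1 of 4, Tef, against 3.73%, and with 2 or more it was 3 of 4, all but Hlf, against 12.4%. Inside or within 5 kb it was 2 of 4, against 9.42%. When a peak counted for a single coding gene, that of the closest end, 2 of 4 had a peak, Tef and Nfil3, against 10.8%. The intervals of the counts of 1 of 4 were 0.631 to 80.6%. Those of the counts of 2 of 4 were 6.76 to 93.2%, and all of these included their background. The interval for 2 or more peaks, 19.4 to 99.4%, did not. The 4 windows together span 899 kb and held 8.90 peaks per Mb of window, against 2.17 over the windows of all coding genes, which overlap each other. The rates were 13.4 for Tef, 9.75 for Dbp, 9.27 for Nfil3 and 3.93 for Hlf. These 4 genes are a family and no random draw, and they were chosen with earlier results of these data known. A peak within 100 kb is also the rule by which the peaks were taken. The intervals therefore describe counting error only and do not test for an excess.

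**Figure D2:**
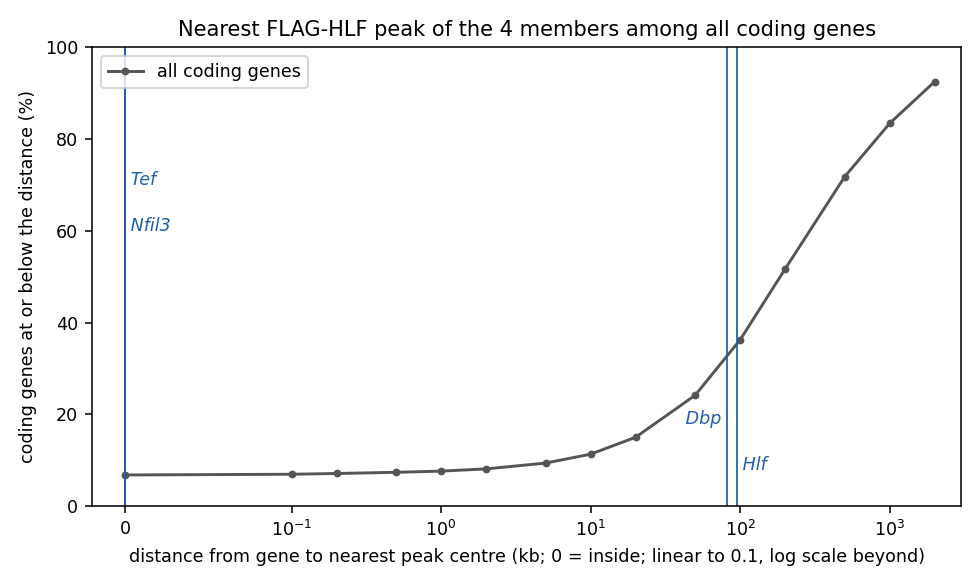
Percent of all 21900 coding genes (y axis) whose nearest FLAG-HLF peak centre lies at or below a given distance in kb (x axis, linear to 0.1 and logarithmic beyond). Blue lines mark the 4 genes: Tef and Nfil3 at 0 with 6.82% of coding genes, Dbp at 81.4 kb and Hlf at 95.6 kb, where 31.9% and 35.3% of coding genes had a peak at least as near.

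A peak over a promoter window was rare in the list. Of the 17492 coding genes with a window in the table, 0.949% had a peak over at least 1 base of it and 0.274%, or 48 genes, a peak over all 300 bases. Tef was among these 48, and Hlf, Dbp and Nfil3 were not. Tef was also 1 of 24 coding genes, or 0.137%, with a peak over a window and another inside the gene off the windows. The genes whose layout was most like that of Tef were sought among 2140 coding genes with a window and at least 2 peaks, by the summed difference in the distances of the nearest 2 peaks from the first start. Zfp386, a zinc finger gene, came closest, with peaks 0.207 kb upstream and 6.89 kb downstream and a summed difference of 0.729 kb. It was followed by Tmem243 (1.76 kb), Fbxo31 (1.79 kb), Nt5c3 (2.94 kb) and Pts (3.03 kb), where the median of the 2140 genes was 100.6 kb.

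**Figure D3:**
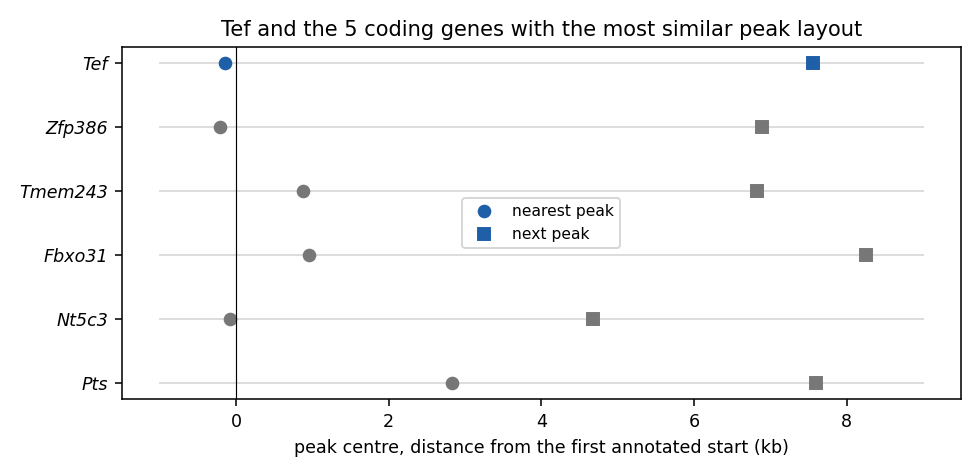
Positions of the nearest peak (circles) and the next peak (squares) of Tef, in blue, and of the 5 coding genes with the most similar layout, in grey, in kb from the first annotated start. Tef has them at -0.145 and 7.56 kb, and Zfp386 at -0.207 and 6.89 kb.

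The covered Tef window can be set beside all promoter windows. Of the 62 windows wholly under a peak, 7 held an exact PAR bZIP site, or 11.3% (exact 95% interval 4.66 to 21.9%), against 332 of the 32624 windows without a peak, or 1.02% (0.912 to 1.13%). Of all 32851 windows 1.06% held it. With 1 mismatch allowed, as in the Tef word, the shares were 67.7% (54.7 to 79.1%) of the windows wholly under a peak, 17.2% (16.8 to 17.6%) of those without and 17.4% of all. The first Tef window was thus 1 of 42 of the 62 with a site at up to 1 mismatch. C/EBP-type words (TTGCGCAA, TTGCATAA, TTGTGCAA and their reverses) were found exactly in 19.4% (10.4 to 31.4%) of the windows wholly under a peak, against 1.83% (1.68 to 1.98%) of those without, and in 1.91% of all windows. The Tef window held none exactly and 1 with 1 mismatch, TGGCACAA, starting 114 bases before the start. The windows of the other 3 genes and the second Tef start held neither. The sets share no word, but 2 of the 5 C/EBP-type words are 1 letter from a PAR bZIP word, so the shares with 1 mismatch overlap. The first Tef window was 64.0% G and C, against a median of 53.2% in windows wholly under a peak and 52.7% in those without. The second Tef window had 62.0%, Dbp 60.3%, Hlf 67.3% and Nfil3 81.7%, and the part of base composition in the absence of these AT-rich words was not tested. Windows of neighbouring starts can overlap, so these counts are not independent.

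**Figure D4:**
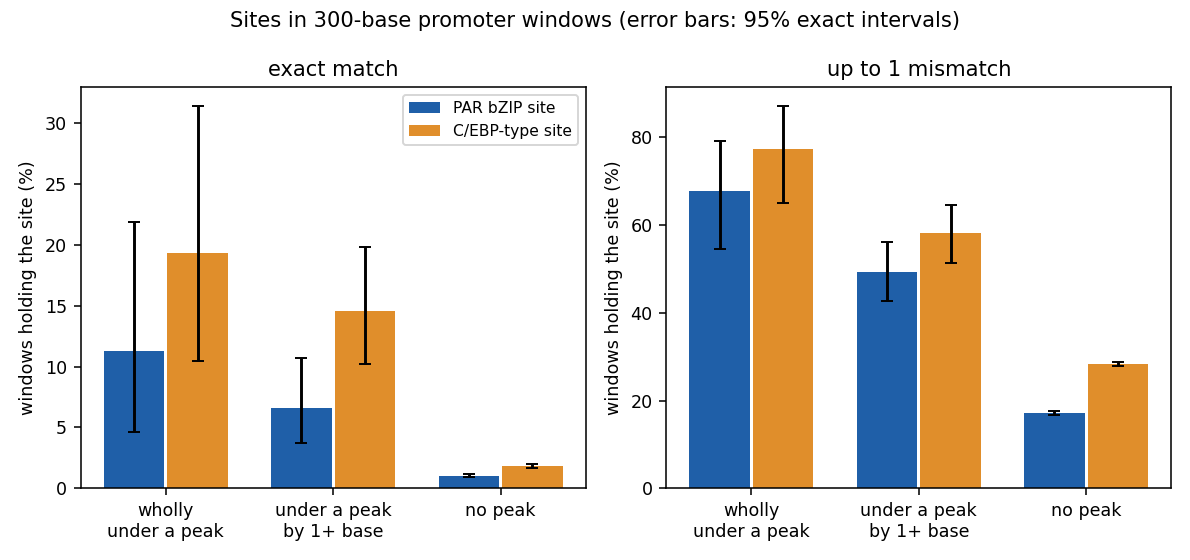
Share of 300-base promoter windows (y axis, percent) that hold a PAR bZIP site (blue) or a C/EBP-type site (orange), for windows wholly under a FLAG-HLF peak, under a peak by at least 1 base, and with no peak. Error bars are exact 95% binomial intervals for counting error. Exact PAR bZIP sites were in 11.3%, 6.61% and 1.02% of these windows, in that order.

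The partners and relatives of these factors were taken as 3 lists, which were chosen with earlier results of these data known. The intervals of their shares describe counting error only and do not test for an excess. Of 20 clock genes, 11 had a peak inside or within 100 kb, or 55%, against the 36.3% of all coding genes. Of 24 other bZIP genes 17 did, or 70.8% (exact 95% interval 48.9 to 87.4%). Of 15 genes taken as under PAR bZIP control in liver and kidney, 8 did, or 53.3%. The intervals of the clock and liver and kidney lists, 31.5 to 76.9% and 26.6 to 78.7%, include the background. Inside the gene the counts were 4 of 20, 6 of 24 and 2 of 15, against 6.82% of coding genes. Median distances to the nearest peak were 88.8, 43.8 and 82.0 kb, against 180.6 kb over the 21631 coding genes on a chromosome with peaks. Of the 59 list genes, 47 have a promoter window in the table. None of these 47 had a peak over all 300 bases of it, close to the 0.274% of coding genes with a window that did. The 12 list genes without a window, among them Nfe2 and Per2, could not be scored.

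Among bZIP relatives, Atf3, a stress-induced repressor, had a peak centred 0.003 kb inside the end at its start, with 247 bases of its window covered. Nfe2, a factor of the erythroid and megakaryocyte lineage, had 1 at 0.019 kb inside an end. Atf4, the effector of the integrated stress response, had 1 at 0.928 kb downstream of its start, and Bach1, a heme-regulated repressor, 1 at 1.10 kb. Fosl2, an AP-1 subunit gene, had 2 inside, the nearer 2.19 kb from its start. Bach2, a repressor of B and T cells, had 1 peak 10.6 kb inside its far end. Cebpa, which encodes a C/EBP factor of the myeloid lineage, had 0 within 100 kb and its nearest at 134.6 kb. The other Cebp genes of the list all had a peak within 100 kb, outside the gene. These peaks were 39.5 kb from Cebpb, 42.5 kb from Cebpe, 61.7 kb from Cebpg and 97.1 kb from Cebpd. The Cebpg peak is the same one that lay 134.6 kb from Cebpa, beyond the 100 kb limit for that gene. Over all coding genes, 36.3% had a peak inside or within 100 kb. Jun and Junb had none within 100 kb. None of the 24 had 3 or more peaks, as Tef did, against 3.73% of coding genes.

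Among clock genes, Nr1d2, a nuclear receptor that represses, had a peak 0.487 kb downstream of its start. Per1, a clock repressor, had 1 centred 0.020 kb upstream of its second start, with 269 bases of that window covered, and was the only clock gene with a covered window in the table. Per1 also had a peak 0.285 kb outside a gene end. Per2, another clock repressor, had 1 peak 0.093 kb outside a gene end and 1 inside, 21.6 kb from an end. Rora, a nuclear receptor that activates, had 2 inside, the nearer 21.0 kb from an end. Of the 56 windows of the list genes, 2 held an exact PAR bZIP site, against 1.06% of all windows. They were those of Per3 and Timeless, neither of which had a peak within 100 kb. None of the 3 list windows under a peak held an exact site. Among liver and kidney genes, Gstt1, a glutathione transferase gene, had a peak 0.034 kb upstream of its start with 284 bases covered, and Pdxk, which encodes pyridoxal kinase, had 1 inside at 6.95 kb from its start. Bhlhe40 and Fosl1, named here after their values were seen, had peaks off the gene, at distances of 1.15 and 2.99 kb.

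**Figure D5:**
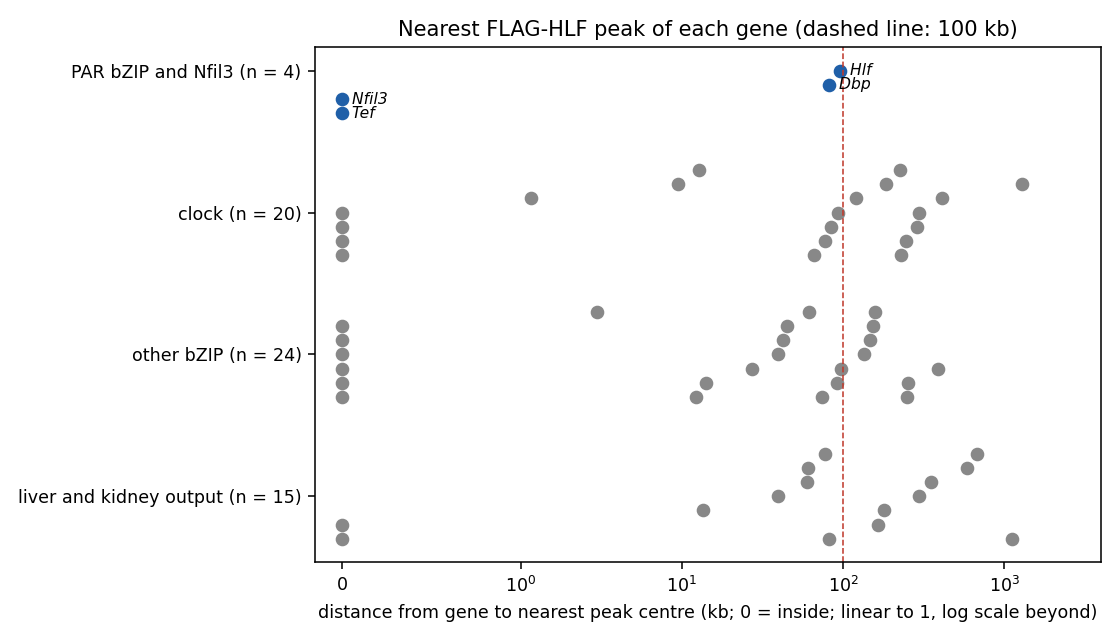
Distance in kb from each gene to its nearest FLAG-HLF peak centre (x axis, 0 for a peak inside, linear to 1 and logarithmic beyond), for the 4 PAR bZIP and Nfil3 genes in blue and the 20 clock, 24 other bZIP and 15 liver and kidney genes in grey. Vertical offsets within a row only separate the points. Tef and Nfil3 sit at 0 and Dbp and Hlf just short of the dashed line at 100 kb.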

How the data were processed

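The deposited FLAG-HLF file is a list of 3153 peak positions, all 400 bases wide, with no score, so depth and detection limits are unknown. Per the submitters' processing notes, the tools were Bowtie2, bedtools and MACS2, with mm10 (GRCm38) as the build, and their roles are not stated. The sources used here do not say how peaks were thresholded or whether the GFP-ctrl library was used. Per the labels' protocols, chromatin was fixed with 1% formaldehyde.

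Coordinates are counted from 1 in mm10. Genes (49997, of which 21900 coding) and promoter sequences (32851 windows, 27025 genes) are from RefSeq tables of GRCm38.p6, and all 4 members and 59 list genes matched by symbol. Peak centres (start + 200) were compared with gene bounds, and exact Clopper-Pearson intervals are at 95%. A planned protein comparison was not run. Distance counting was tested on simulated data.

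Named genes are the members, coding genes beside their peaks, up to 12 list genes with a peak inside or within 5 kb, and the 5 genes most like Tef in layout. Some neighbours that the rule takes are not reported here. Members and lists were chosen with earlier results of these data known. Alternatives changed the window, the distance, the assignment, the gene set, the lines and the mismatches. Tools were scipy 1.17.1, pandas 2.3.3, numpy 2.4.6 and matplotlib 3.10.9 under Python 3.11.15.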

Additional observations from a re-analysis of the deposited data

How the results depend on the processing

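Of 58 alternative values for 12 results, 29 stayed within 1.5 times the reported count or within the interval of the reported share, and 29 did not. With a window of 20 kb the 4 genes had 3 peaks, 2 genes (Tef and Nfil3) had one, 15% of coding genes did, and so did 7 clock, 9 other bZIP and 3 liver and kidney genes. With 50 kb the members had 4 peaks at 2 genes, against 24.2% of coding genes, with 7 clock and 4 liver and kidney genes. With 200 kb the members had 11 peaks, 4 of them at Nfil3, and all 4 genes had one, against 51.7% of coding genes, a background inside the 39.8 to 100% interval of that count. With each peak counted for a single coding gene, that of the closest end, the members had 3. The first 1576 of the 3153 lines of the file, whose order is not explained, held 7 of the 8 member peaks. With those lines alone, all 4 members had a peak, against 22% of coding genes, and so did 11 other bZIP genes. Over all annotated genes the background was 28.9%. With up to 1 mismatch, 1 member window held the PAR bZIP site, against 0 exactly. Of the 227 windows under a peak by at least 1 base, 112 held it with up to 1 mismatch, against 15 exactly. In the covered bases of these windows alone, the counts were 101 and 14. No paired analysis was possible because each group has 1 library. Leaving out a replicate, or a stricter peak threshold, could not be tried with 1 list without scores.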
